A study of Homo sapiens with 6 samples.

Results

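The 9 genes described here encode the post-squalene enzymes of cholesterol synthesis, SQLE, LSS, CYP51A1, TM7SF2, MSMO1, NSDHL, HSD17B7, EBP and DHCR7. They were chosen by gene symbol, in pathway order from squalene to cholesterol, and are 9 of the 40205 genes listed in the count table. RNA-seq was run on a human liver cancer cell line labelled HepG2, in 3 control samples, numbered Control-1, Control-2, Control-3, and in 3 samples exposed to cationic liposomes for 24 h, CLs-1, CLs-2 and CLs-3. Where a sentence gives 3 values for a group, they stand in this order. All samples were grown in the same medium with fetal bovine serum, and no transgene or genetic change is named in the labels. The CLs were made from the cationic lipid DOTAP, cholesterol and a PEG-coupled phospholipid, so the particles carried cholesterol themselves. The dose was 120 μM by the sample labels, while other text on the RNA-seq experiment uses μg/ml as its unit. The comparison asked whether exposure to CLs altered the expression of these enzymes. The samples are described as independent, but separate cultures are not named, so the p-values cover only the spread between these samples, which may be technical.

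Cholesterol is made in the endoplasmic reticulum membrane from squalene, which is oxidised, folded into the first sterol, lanosterol, and then trimmed and rearranged in a fixed set of steps. The genes of this pathway are classic targets of SREBP-2, a transcription factor held in the membrane by SCAP and INSIG proteins when sterols are abundant and released to the nucleus when they are scarce. The liver is a main site of the pathway, because cholesterol feeds lipoprotein secretion and bile acid synthesis there. Several intermediates are known for signalling roles, and inherited defects of DHCR7, NSDHL and EBP cause malformation syndromes.

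The samples held 11418527 to 13998946 gene reads each. The label HepG2 was compared with 18 hepatocyte and hepatoma markers, and 0 of 18 passed the filter on low counts. Their summed counts were 5, 25 and 22 in the controls, against 185, 4 and 5 under CLs. TTR and APOH had 0 counts in all 6 samples, ALB had 8 counts in CLs-1 and 0 elsewhere, and AFP had at most 1 count in any sample. The defining markers of the labelled cell were therefore at or near 0, and the cells are called by their label only. CLs-1 stood apart from the other samples. The 3 red blood cell markers summed to 476 counts in CLs-1 and to at most 4 in any other sample, and the 9 markers of steroid-producing cells summed to 482 in CLs-1 (290 of them from STAR) and to between 11 and 32 elsewhere, mostly from CYP11A1. The 6 fibroblast markers summed to between 8225 and 12564 counts in the controls and to between 9052 and 13297 under CLs. These sums came mostly from COL3A1, with between 7456 and 11358 counts in every sample, and from COL1A1, with between 764 and 2472. The other markers of this list were near 0 outside CLs-1. COL1A2 reached 1044 counts in CLs-1 but no more than 2 in any other sample. DCN, LUM and THY1 had 19, 7 and 58 counts in CLs-1, against at most 5, 0 and 1 elsewhere. The part that RNA of other cells in CLs-1 had in the values below was not tested, and each main count of the 9 enzymes is also given without CLs-1. In bulk samples, fewer cells of a type and less RNA per cell cannot be told apart.

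The mean of every one of the 9 enzymes was lower in the CLs-treated group than in the control group. The log2 fold changes, each the CLs-treated against the control group, ran from -0.97 for TM7SF2 to -0.24 for EBP, with a median of -0.60 against 0.01 over all 15047 tested genes. A negative value was found in 47.9% of those genes. All 9 had enough reads to be tested by edgeR's quasi-likelihood test, and 0 of 9 were called at an adjusted p-value under 0.05 with a fold change above 1.5 or below 0.67, criteria that called 0.0731% of all tested genes as lower, 0.0133% as higher and 0.0864% in either direction. The unadjusted p-value was under 0.05 in 7 of 9, all but CYP51A1 and EBP, and 3.62% of all tested genes had such a p-value with a lower level (5.81% in either direction). With DESeq2's Wald test 3 of 9 were called (SQLE, LSS and DHCR7), against 0.611% of genes called lower, and the same 3 were called by edgeR with no filter on low counts, against 0.444%. In 6 of 9 enzymes all CLs-treated samples lay below all control samples, against 6.18% of tested genes (11.5% had no overlap in either direction). Without CLs-1, 9 of 9 were still lower. In 7 of 9 all remaining CLs-treated samples lay below all controls, against 13.7% of tested genes. The unadjusted p-value was then under 0.05 in 7 of 9, against 5.47% of tested genes with such a p-value and a lower level. The plot of CPM by sample shows these values, where CPM are the counts scaled to a library total of 1000000 after TMM, TMM being edgeR's correction for differences in library composition.

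**Figure D1:**
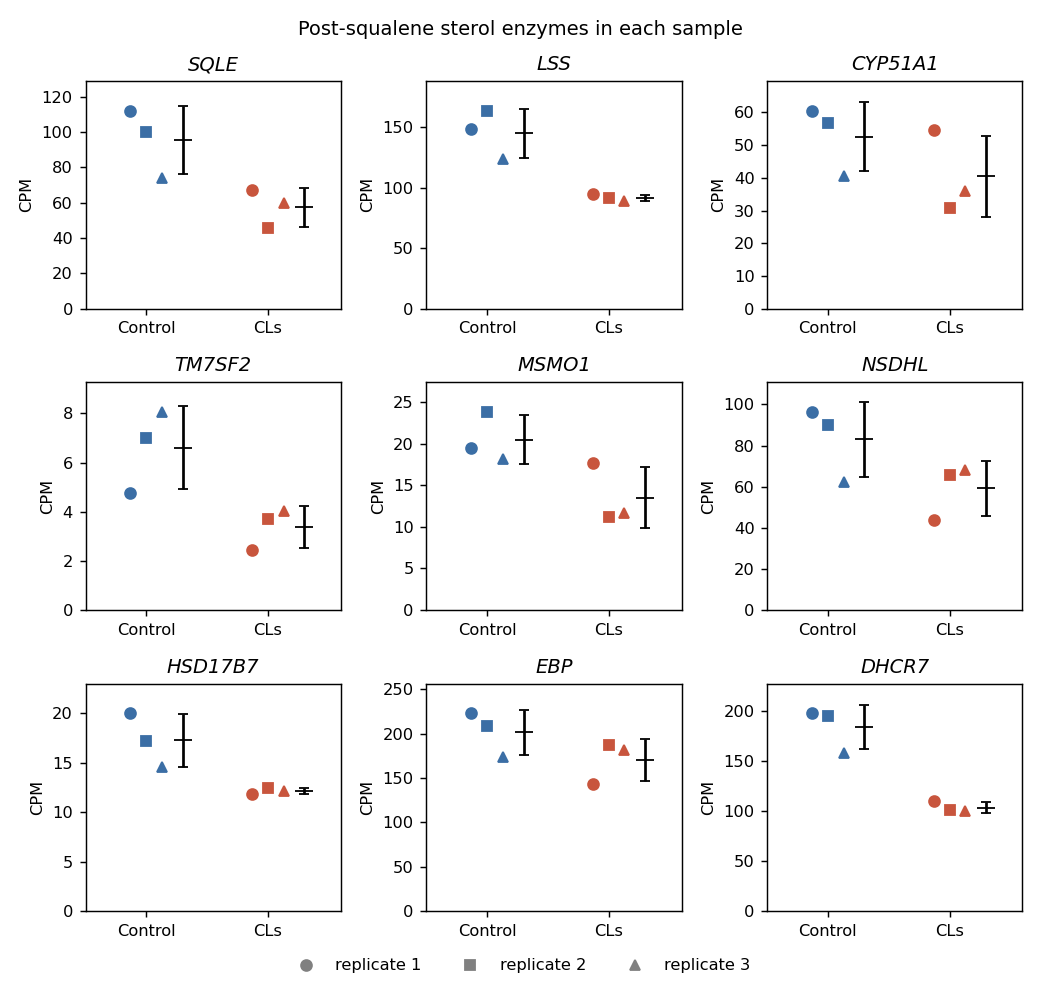
Each panel plots the CPM of 1 enzyme (vertical axis from 0) in the 3 control samples (blue) and the 3 CLs-treated samples (red), with the mean and SD of each group in black and the replicate number as the marker shape. The groups do not overlap in SQLE, LSS, TM7SF2, MSMO1, HSD17B7 and DHCR7, and they overlap in CYP51A1, NSDHL and EBP.

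The DNA before the start sites of these enzymes was read from RefSeq (GRCh38.p14, a different build from that of the counts). Windows of 250 bases upstream were found for 8 of the 9 genes, 9 windows in all, since DHCR7 has 2 start sites in the table. The windows of TM7SF2 and EBP lie wholly in annotated exons. The letters CCAAT, the box bound by NF-Y, a known partner of SREBP-2, were present on either strand in 7 of the 9 windows, against 32.0% of all 35116 windows and 33.2% of the windows of tested genes. The exceptions were the window of CYP51A1 and 1 of those of DHCR7. GGGCGG, the core of the box bound by Sp1, was present in 7 of 9 windows, all but those of NSDHL and the same start of DHCR7, against 42.6% of all windows and 63.8% of those of tested genes. TCACNCCA, part of a known sterol response element, was present in 1 of 9 windows (MSMO1). It was present in 3.20% of all windows and 2.78% of those of tested genes. The E-box CACGTG was present in 0 of 9, against 6.34% of all windows and 8.31% of those of tested genes. These matches describe letters and not binding, and their part in the levels of the enzymes was not tested. The windows of 3 genes are shown with CCAAT and its reverse complement ATTGG in capitals, without the bases that lie in annotated exons, namely LSS and DHCR7, the enzymes with the smallest p-values, and NSDHL, whose whole window held the most matches. Those of LSS (chr21:46228825-46229024, minus strand), NSDHL (chrX:152830813-152830966, plus strand) and DHCR7 (chr11:71448436-71448643, minus strand) are written 5′ to 3′. In NSDHL 1 pair of matches overlaps, since CCAAT runs into ATTGG. The DHCR7 window shown is that of the start site with matches.
LSS: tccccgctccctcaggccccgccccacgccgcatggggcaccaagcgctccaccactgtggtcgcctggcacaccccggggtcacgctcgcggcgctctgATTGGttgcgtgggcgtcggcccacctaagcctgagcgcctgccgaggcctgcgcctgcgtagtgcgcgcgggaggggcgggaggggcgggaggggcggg
NSDHL: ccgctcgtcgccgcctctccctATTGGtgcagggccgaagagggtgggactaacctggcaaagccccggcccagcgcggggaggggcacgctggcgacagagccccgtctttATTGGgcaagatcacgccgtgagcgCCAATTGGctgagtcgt
DHCR7: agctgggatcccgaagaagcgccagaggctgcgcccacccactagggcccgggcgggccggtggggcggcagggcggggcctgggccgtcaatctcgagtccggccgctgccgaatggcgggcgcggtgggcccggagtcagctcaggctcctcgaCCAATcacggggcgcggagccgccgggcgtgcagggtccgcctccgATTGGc

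The entry into sterol synthesis was lower in every CLs-treated sample. SQLE, squalene epoxidase, adds the oxygen to squalene and is a rate-limiting step of the pathway. SQLE was at 112, 100.1 and 74.1 CPM in the controls, against 67.0, 45.5 and 60.1 CPM under CLs. The highest CLs-treated sample was thus just under the lowest control, Control-3. Its control mean was 95.4 ± 19.4 CPM and its CLs-treated mean 57.5 ± 11.0 CPM (SD, n = 3 each), a log2 fold change of -0.73 (SE 0.19, edgeR adjusted p = 0.286). LSS, lanosterol synthase, folds the oxidised squalene into lanosterol. LSS was at 148.1, 163.4 and 123.3 CPM in the controls, against 94.3, 91.4 and 88.9 CPM under CLs. The CLs-treated samples lay close to each other and well below all controls, with means of 144.9 ± 20.2 and 91.5 ± 2.69 CPM (SD, n = 3 each). The log2 fold change of LSS was -0.66 (SE 0.14, edgeR adjusted p = 0.173).

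The next pair of steps removes the 14-methyl group of lanosterol and reduces the double bond that remains. CYP51A1, the cytochrome P450 lanosterol demethylase, was at 60.5, 56.6 and 40.6 CPM in the controls, against 54.6, 30.9 and 35.9 CPM under CLs. Its groups overlapped, since CLs-1 was above Control-3, and its log2 fold change was -0.38 (SE 0.22, edgeR adjusted p = 0.937). Without CLs-1 it was -0.66 (SE 0.19, edgeR adjusted p = 0.366). The reads of CYP51A1 can be shared with its pseudogene copies, whose rows held between 12.9% and 17.1% of the reads of the gene and its copies together. Added to CYP51A1, they left its log2 fold change at -0.39. In GENCODE v29, 79.4% of the exon bases of CYP51A1 also lie in AC000120.2 on the same strand, a gene with no row in the count table. TM7SF2, a 14-sterol reductase, was the least abundant enzyme, with 55, 81 and 94 counts in the controls, against 35, 43 and 46 counts under CLs. These counts corresponded to 6.61 ± 1.68 CPM in the control group and 3.39 ± 0.852 CPM in the CLs-treated group (SD, n = 3 each), or 51.3% of the control mean. The 95% interval of its log2 fold change of -0.97 was wide, from -1.60 to -0.34 (edgeR adjusted p = 0.392), and without CLs-1, its lowest sample, the log2 fold change was -0.77.

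LBR, the lamin B receptor, has the same 14-reductase activity in the inner nuclear membrane. LBR was at 64.4, 55.2 and 59.3 CPM in the controls, against 87.4, 52.6 and 66.1 CPM under CLs, with overlapping groups and a log2 fold change of 0.20 (SE 0.18, edgeR adjusted p = 0.998). There were 0.0741, 0.127 and 0.136 reads of TM7SF2 per read of LBR in the controls, against 0.0277, 0.0707 and 0.0610 under CLs. This ratio does not depend on the scaling of the libraries. It was lower in each CLs-treated sample than in each control sample, though only just between Control-1 and CLs-2. It was computed after the values were seen, and no test was made of it. Another such ratio, reads of SQLE per read of FDFT1, which makes squalene, overlapped between the groups. It was 0.382, 0.372 and 0.339 in the controls, against 0.390, 0.282 and 0.324 under CLs. The share of gene pairs with such a separation was not computed.

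The 4-methyl groups of the sterol ring are removed by MSMO1, NSDHL and HSD17B7, which act as an oxidase, a decarboxylating dehydrogenase and a ketone reductase. MSMO1 was at 19.5, 23.8 and 18.2 CPM in the controls, against 17.7, 11.1 and 11.7 CPM under CLs. CLs-1 was close to Control-3, below it after TMM but not with scaling by library size only. The other CLs-treated samples were far below. The log2 fold change of MSMO1 was -0.60 (SE 0.21, edgeR adjusted p = 0.653), and it was -0.85 without CLs-1. In NSDHL CLs-1 was instead the lowest sample, with 96.3, 90.1 and 62.4 CPM in the controls, against 43.8, 65.6 and 68.1 CPM under CLs. Its groups overlapped, because Control-3 was below CLs-2 and CLs-3. The log2 fold change of NSDHL was -0.49 (SE 0.20, edgeR adjusted p = 0.783), and it was -0.31 without CLs-1 and -0.66 without Control-3. HSD17B7 was at 20.0, 17.2 and 14.6 CPM in the controls, against 11.8, 12.4 and 12.1 CPM under CLs, a log2 fold change of -0.51 (SE 0.18, edgeR adjusted p = 0.637). Its CLs-treated samples had an SD of 0.305 CPM and lay below all controls. The rows of its pseudogenes HSD17B7P1 and HSD17B7P2 held 4 to 13 counts in all. C14orf1, an older symbol of ERG28, the scaffold of this 4-demethylation complex, had a log2 fold change of -0.18 (edgeR adjusted p = 0.998).

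Of the last enzymes of the list, the groups overlapped in EBP and not in DHCR7. EBP, the isomerase that moves the double bond of the sterol ring, was at 222.9, 208.1 and 173.1 CPM in the controls, against 143.2, 187.0 and 181.5 CPM under CLs. Its groups overlapped, and its CLs-treated mean was 84.7% of the control mean. The log2 fold change of EBP was -0.24 (SE 0.15, edgeR adjusted p = 0.951), and -0.13 without CLs-1. EBPL, a related gene without known isomerase activity, had a log2 fold change of 0.08 (edgeR adjusted p = 0.998). DHCR7, the reductase that turns 7-dehydrocholesterol into cholesterol, was at 198.2, 195.8 and 158.7 CPM in the controls, against 109.9, 101.5 and 100.0 CPM under CLs. All CLs-treated samples were far below the lowest control, and the mean was 56.3% of the control mean. DHCR7 had the smallest adjusted p-value of the enzymes, 0.0562, with a log2 fold change of -0.83 (95% interval -1.13 to -0.53), and it ranged from -0.92 to -0.77 when each sample was left out. There were 0.889, 0.941 and 0.917 reads of DHCR7 per read of EBP in the controls, against 0.768, 0.543 and 0.551 under CLs, a pair chosen after the values were seen and not tested.

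SC5D, which adds a double bond to the ring before DHCR7 acts, was at 49.6, 41.5 and 26.7 CPM in the controls, against 44.9, 30.6 and 26.2 CPM under CLs. Its groups overlapped, with a log2 fold change of -0.21 (SE 0.25, edgeR adjusted p = 0.998).

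The samples of a group were not alike in these enzymes. Control-3 was the lowest control in 8 of 9, all but TM7SF2, in which it was the highest. Relative to the control mean of each enzyme on the log2 CPM scale, the mean over the 9 enzymes was 0.08, 0.12 and -0.20 in the controls, against -0.58, -0.64 and -0.57 under CLs. The CLs-treated samples were therefore close to each other in the mean. CLs-1 nevertheless differed from CLs-2 and CLs-3 from gene to gene. It was the highest CLs-treated sample in SQLE, LSS, CYP51A1, MSMO1 and DHCR7 and the lowest in TM7SF2, NSDHL, HSD17B7 and EBP, with a range from -1.36 to 0.07 around the control mean. The profile of each sample along the pathway shows this pattern. Without Control-3, all CLs-treated samples lay below the remaining controls in 9 of 9 enzymes, against 11.4% of tested genes. The unadjusted p-value was then under 0.05 in 8 of 9, against 3.33% of tested genes with such a p-value and a lower level. Control-3 was singled out after it was seen to be the lowest control in 8 of 9, which favours separation. CYP51A1, NSDHL and EBP had overlapped only through this sample. The shares over all genes are therefore not a like comparison, and no conclusion is drawn from these counts.

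**Figure D2:**
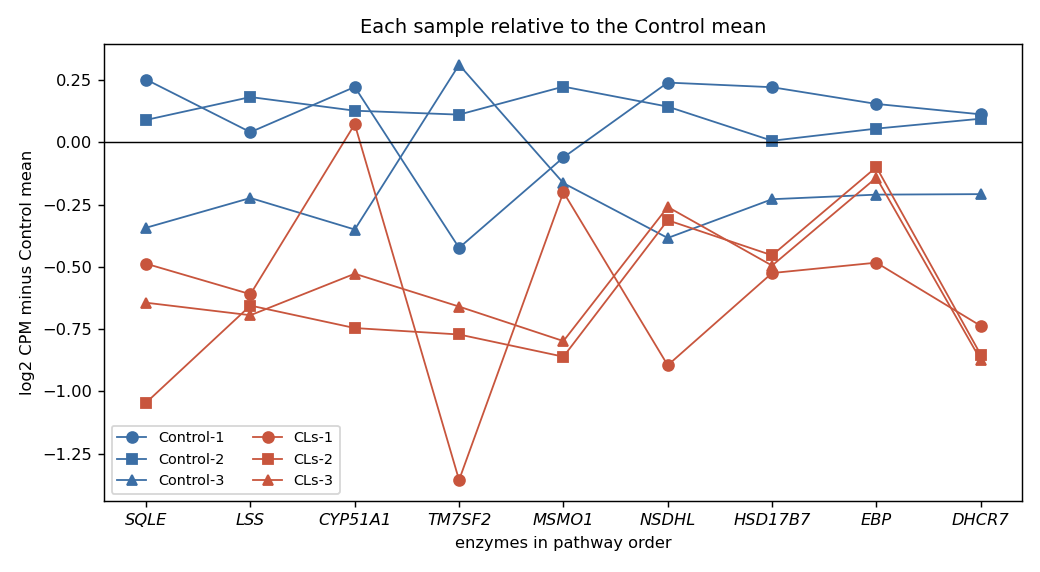
The log2 CPM of each enzyme minus its control mean (vertical axis) is plotted in pathway order for every sample, controls in blue and CLs-treated samples in red, with the replicate number as the marker shape. Control-3 sits below the other controls in 8 of 9 enzymes, and CLs-1 ranges from -1.36 in TM7SF2 to 0.07 in CYP51A1.

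No fold change of the 9 changed sign when a sample was left out. The median over the enzymes ranged from -0.69 to -0.51 in these fits, and 0 of 9 were called in each of them. The fold change of CYP51A1 moved most, between -0.66 and -0.21, while that of DHCR7 moved least. The 95% intervals of the fold changes overlapped in all 36 pairs of enzymes, and differences between the enzymes were not tested.

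**Figure D3:**
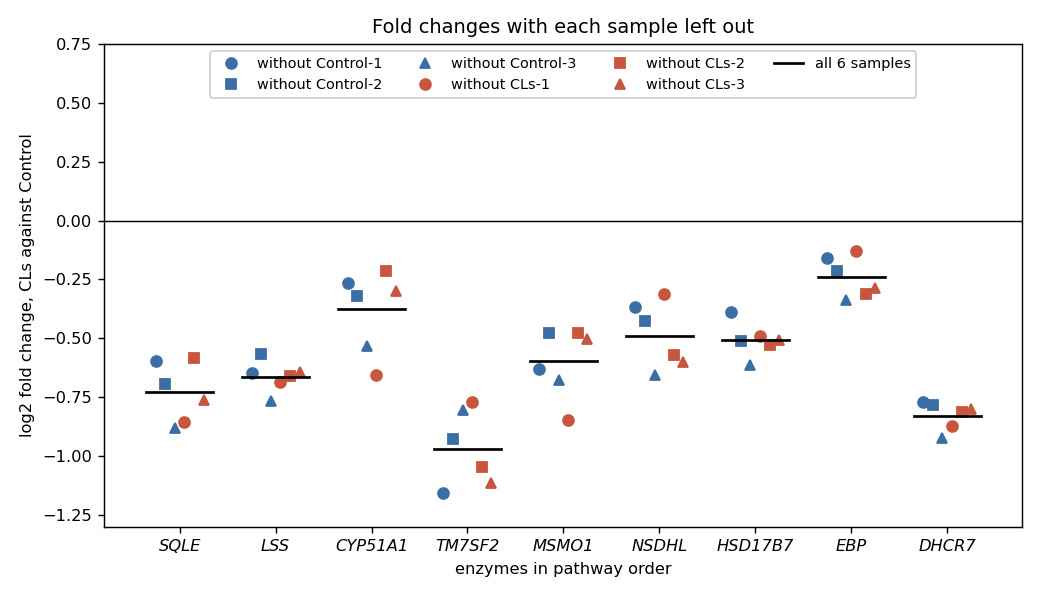
The log2 fold change of each enzyme, CLs-treated against control, is plotted with each sample left out (blue for a control sample, red for a CLs-treated sample) beside the value from all 6 samples (black line). All values are below 0, and they spread from -0.66 to -0.21 in CYP51A1.

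Levels of different enzymes were compared per length, as the CPM per 1000 bases of annotated exon (RPKM), with exon lengths from GENCODE v29. The annotation used for counting is not given in the sources used here, so these levels are approximate. In the control group EBP was highest, at 83.6 ± 10.6 RPKM (SD, n = 3), followed by DHCR7 at 44.3 ± 5.33, NSDHL at 41.5 ± 9.03, SQLE at 22.2 ± 4.50, LSS at 20.0 ± 2.79 and CYP51A1 at 14.7 ± 2.94. MSMO1 at 7.09 ± 1.02, HSD17B7 at 3.61 ± 0.565 and TM7SF2 at 1.94 ± 0.492 RPKM were the lowest. The ranges of DHCR7 and NSDHL and those of SQLE and LSS overlapped, and the other neighbours in this order did not. In the CLs-treated group NSDHL, at 29.6 ± 6.71 RPKM, stood before DHCR7, at 25.0 ± 1.29, with overlapping ranges, and the order was otherwise the same. The ranges of SQLE and LSS and those of LSS and CYP51A1 also overlapped there. LBR, the other 14-reductase, was at 11.3 RPKM in the control group and at 13.1 RPKM in the CLs-treated group, both above TM7SF2.

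The steps before squalene and the control genes of the pathway were set beside these enzymes. In the 9 genes from acetyl-CoA to squalene, the CLs-treated mean was lower in 8 of 9, 5 of 9 had no overlap and 0 of 9 were called, with a median log2 fold change of -0.50. Beside these counts and those of the lists below, 47.9% of all tested genes were lower, 11.5% had no overlap and 0.0864% were called. The list counts were not repeated without CLs-1. MVD, which makes isopentenyl diphosphate, was the lowest, from 34.4 ± 4.99 to 18.8 ± 1.67 CPM (SD, n = 3 each), a log2 fold change of -0.87 (edgeR adjusted p = 0.0974). PMVK, the kinase before it, was the highest at 0.11 (edgeR adjusted p = 0.998). Of the 7 genes that control SREBP, 5 of 7 were lower, 1 of 7 had no overlap and 0 of 7 were called. Their median log2 fold change was -0.03. INSIG1, the membrane anchor of SCAP and itself an SREBP target, was the lowest at -0.84 (SE 0.19, edgeR adjusted p = 0.201), and MBTPS2, a protease that releases SREBP, the highest at 0.11 (edgeR adjusted p = 0.998). Among 8 other genes listed as SREBP-2 targets, 7 had enough reads to be tested. Of these, 7 of 7 were lower, 3 of 7 had no overlap and 0 of 7 were called. ACSS2, a cytosolic enzyme that makes acetyl-CoA from acetate, was at 22.5, 27.1 and 31.4 CPM in the controls, against 12.7, 12.8 and 15.9 CPM under CLs, a log2 fold change of -0.97 (edgeR adjusted p = 0.0974). FADS2, a fatty acid desaturase, was the highest of this list at -0.11 (edgeR adjusted p = 0.998). Like TM7SF2 but unlike the other post-squalene enzymes, INSIG1 and ACSS2 had their highest control value in Control-3.

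**Figure D4:**
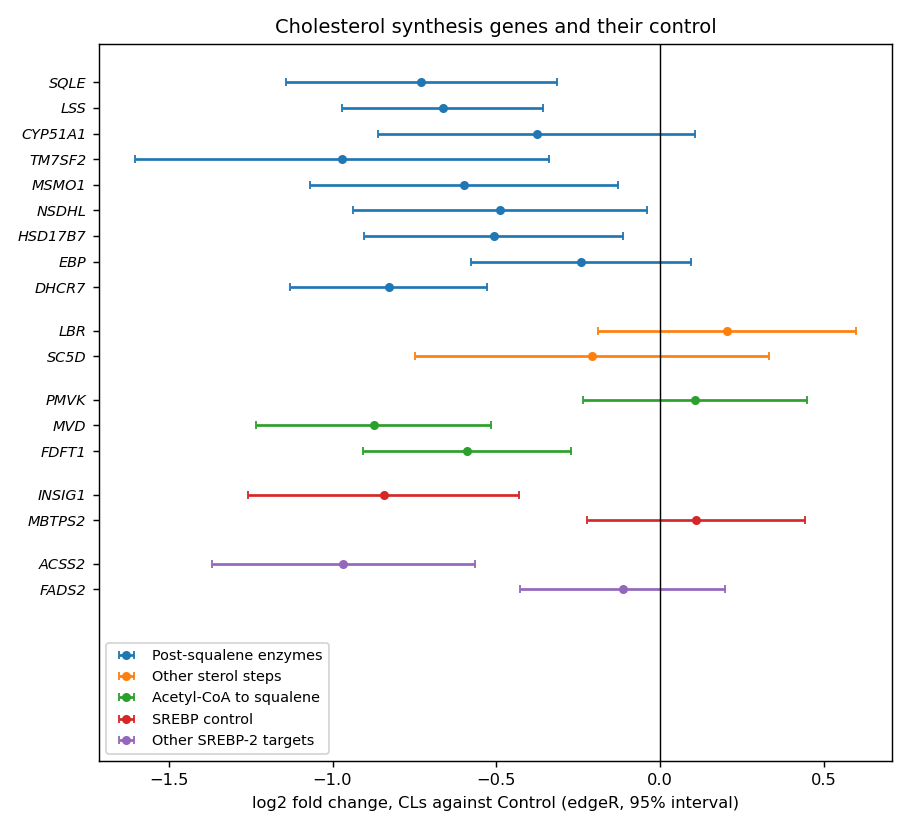
The log2 fold change of each post-squalene enzyme and of 9 other genes named in the text, CLs-treated against control (horizontal axis), is plotted with its 95% interval from edgeR, grouped by list and coloured as in the key. All 9 post-squalene enzymes lie below 0, with the intervals of CYP51A1 and EBP reaching above 0, and LBR lies at 0.20.

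The genes of the proteins that serve these enzymes had median log2 fold changes of -0.08 and -0.04. In the list of electron donors and scaffold proteins, POR, which passes electrons to CYP51A1 and SQLE, was at 153.1 ± 27.9 CPM in the control group and 194.2 ± 34.5 CPM in the CLs-treated group (SD, n = 3 each), the highest log2 fold change of its list at 0.34 (edgeR adjusted p = 0.890). In this list 0 of 6 were called and 4 of 6 were lower, against 0.0864% and 47.9% of all tested genes. Of the 7 genes for the turnover of sterol enzymes, among them MARCH6, a ubiquitin ligase that acts on SQLE, 0 of 7 were called, and the highest log2 fold change was 0.17 (RNF139, edgeR adjusted p = 0.998).

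The tested genes were ranked by how closely their level followed the mean of the 9 enzymes over the 6 samples, by the root mean square difference of centred log2 CPM. The 5 closest of 15038 genes were SLC2A3, a glucose transporter, at 0.0395, FDFT1, which makes squalene, at 0.0624, BCL2L1, an apoptosis inhibitor, at 0.0772, RIMKLBP1, a pseudogene, at 0.0824, and EHD1, an endocytic recycling protein, at 0.0837. SLC2A3 was at 149.5, 159.3 and 120.0 CPM in the controls, against 95.2, 86.1 and 94.4 CPM under CLs. FDFT1 had a log2 fold change of -0.59 (SE 0.15, edgeR adjusted p = 0.258). Within the 9 enzymes the same difference was smallest for LSS, at 0.0572, and largest for TM7SF2, at 0.404.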

How the data were processed

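The authors mapped filtered single-end Ion Proton reads with MapSplice and deposited raw counts, which are integers for 40205 gene symbols and were not normalized. The submitters' processing notes name HTSeq 0.6.1 and the builds hg19 and GRCh37. How reads that match several places were treated is not given in the sources used here. The file lists no coordinates. All 6 columns were used, and 0 columns were left out.

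The main comparison used the quasi-likelihood F test of edgeR 4.0.16 (R 4.3.3), with treatment as the only term. Genes were filtered with filterByExpr, which kept 15047, and scaled by TMM, with Benjamini-Hochberg adjustment over all tested genes. Standard errors were derived from the F statistic. The EBSeq package of the study was not used here. The exact permutation test (two-sided, 3 against 3 samples) cannot go below p = 0.10, and it gave 0.10 for the 6 enzymes without overlap. Depth was 11418527 to 13998946 counts, and 3 counts, the floor of what this depth can show, are 0.214 to 0.263 CPM before scaling, for counting error only.

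The enzymes and all gene lists were chosen with earlier results of these data known. Named are the 9 enzymes, the genes with the highest and lowest log2 fold change of each list and any called, the copies, and the 5 genes of closest pattern. The markers were named beyond this rule where a value turned on them, as were SC5D and MARCH6, after their values were seen. A few genes that fall under the rule are not reported here. The script was tested on simulated data. Alternatives were DESeq2 1.42.0, other scalings and filters, calls by p-value alone, a block for the replicate number, each sample left out, and pseudogene reads added to their gene.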

Additional observations from a re-analysis of the deposited data

How the results depend on the processing

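All 9 enzymes kept a negative log2 fold change under each of the 15 alternatives, and their median ranged from -0.69 to -0.51. Not all of these could move the fold changes. Calling by p-value alone reuses those of the main comparison. Adding pseudogene reads altered the counts of only CYP51A1 and HSD17B7 among the enzymes. Calls depended on the test and the filter. Against 13 genes called in the main comparison, DESeq2's Wald test called 104, edgeR with no filter on low counts 171 and edgeR with library size only 8, and leaving out each sample gave between 3 and 7. Of the enzymes 0 were called in the main comparison and between 0 and 0 with each sample left out, but 3 were called with DESeq2 and 3 with no filter. Those settings called 0.611% and 0.444% of all tested genes as lower. In DESeq2 these were SQLE at -0.73 (adjusted p = 0.0359), LSS at -0.67 (adjusted p = 0.00586) and DHCR7 at -0.83 (adjusted p = 3.03e-05). With no filter they were SQLE at -0.72 (adjusted p = 0.0250), LSS at -0.66 (adjusted p = 0.0253) and DHCR7 at -0.82 (adjusted p = 0.00167). Over the alternatives, the adjusted p-value of DHCR7 ranged from 3.03e-05 to 0.342, that of LSS from 0.00586 to 0.697 and that of SQLE from 0.0250 to 0.768. The number of enzymes without overlap between the groups was 6 in the main comparison and between 5 and 9 in the alternatives. It was 5 under library size only, where the groups of MSMO1 overlapped, and 9 without Control-3, the lowest control in most of the enzymes. Over all tested genes, 6.18% were lower without overlap in the main comparison and 11.4% without Control-3. The cause of these differences was not tested.

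Both groups carry the replicate numbers 1 to 3. The deviations from the group means correlated across genes at 0.11, 0.0987 and 0.31 between samples numbered 1, 2 and 3. Since 1 of these was not over 0.1, the numbers were not taken as pairs, although 6 of 6 samples correlated best with their own number. With the replicate number as a block, 68 genes were called (12 higher and 56 lower, the latter 0.372% of tested genes), among them 1 enzyme, DHCR7, at -0.82 (adjusted p = 0.0157).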
